A study of Mus musculus with 34 samples.

Results

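The genes described here encode the constitutive proteasome of mouse macrophages. They were chosen by symbol: every gene on the array whose symbol starts with Psma, Psmb, Psmc, Psmd or Psme, except the immunoproteasome and activator genes Psmb8, Psmb9, Psmb10, Psme1 and Psme2. Where several probe sets carry a gene's symbol, the one with the highest mean signal stands for it. The rule found 38 genes among the 10855 probe sets that carry exactly 1 symbol, out of 12488 on the array. They comprise 7 genes of the alpha ring, 7 of the beta ring, 6 ATPases of the base, 3 other base subunits, 8 lid subunits, 3 assembly chaperones of the base, 2 proteasome activators and 2 genes that match by symbol only. The last 2 are Psmc3ip, a recombination factor, and Psme3ip1, a partner of the activator subunit Psme3. Neither encodes a proteasome subunit.

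The cells were macrophages grown out of mouse bone marrow for 7 days, and RNA was measured on 34 Affymetrix MG-U74Av2 arrays, of which 32 fell into 16 groups. IL-10-/- cells, IL-6-/- cells and wild-type (WT) cells received LPS at 100 ng/ml together with IL-10 at 10 ng/ml for 45 or 180 min, LPS together with IL-6 at 2 ng/ml for 45 min, or LPS alone for 45 or 180 min. Each of these groups had 2 arrays, except that LPS alone in IL-6-/- cells had 1 array at each time. The remaining group was 4 arrays of resting cells. The knockouts carry the deletion in every cell, so a knockout culture can differ in growth as well as in its response. No genotype is labelled for the resting cells, and the labels name L-cell conditioned medium as the source of the growth factor CSF-1 for those cells but mCSF for the stimulated cells. Genotype, CSF-1 source and stimulation therefore cannot be told apart in any comparison with resting cells. The titles call the arrays biological replicates without saying how many mice stand behind them, so the p-values cover only the spread among the arrays of a group, which may be technical.

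The proteasome is the protease that degrades most ubiquitin-tagged proteins. Its core is a barrel of alpha and beta rings, in which 3 of the beta subunits carry the active sites. A regulatory particle caps the barrel. Its base holds a ring of ATPases that unfold the substrate and subunits that receive ubiquitin chains, and its lid holds the deubiquitinase Psmd14, which cuts the chains off. Interferons replace the active-site subunits Psmb6, Psmb7 and Psmb5 by Psmb9, Psmb10 and Psmb8 to give the immunoproteasome, which shapes peptides for antigen presentation. In macrophages given LPS, the proteasome also destroys the inhibitor of NF-kappaB and so releases that transcription factor.

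Signals are the authors' MAS5 values on a linear scale, and the 2% trimmed means of the 32 arrays ran between 500.29 and 500.4. Stimulated arrays correlated with the other arrays of their group at r between 0.932 and 0.96, resting replicates 1 to 3 at r between 0.901 and 0.906, and resting replicate 4 at r = 0.873, so that this array stood apart. All 7 macrophage markers on the array were detected. Their summed signal lay between 100900 and 128400 in resting cells, and in WT cells given LPS between 120600 and 132200 after 45 min and between 108200 and 123800 after 180 min. The Il10 probe set gave between 1512 and 10600 in stimulated IL-10-/- cells and between 2412 and 4512 in stimulated WT cells. The Il6 probe set gave between 427.5 and 8400 in stimulated IL-6-/- cells and between 209 and 4568 in stimulated WT cells. Where these probes lie relative to the deleted parts is not given in the sources used here, so the values check neither genotype.

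Of the 38 genes, 35 reached a signal of 200 on at least 2 arrays and were tested. The ATPase Psmc4 (signal 12.6 to 207.6), the base scaffold subunit Psmd2 (15.9 to 208.4) and Psmc3ip (4.4 to 57.8) did not. The 35 tested genes are called proteasome genes below, although they include Psme3ip1, which matches by symbol only. A low signal of 1 probe set does not show a low transcript level, and signals are not compared between genes. Changes below are differences of the mean log2(signal + 50), which understates the change of weak signals, given with the standard error of the limma fit over all 16 groups. A call means an adjusted p under 0.05 after Benjamini-Hochberg adjustment over the 8224 probe sets tested. RNA came from whole cultures, so fewer cells of a type and less RNA per cell cannot be told apart.

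Most constitutive proteasome genes varied little across the 16 groups. The difference between the highest and the lowest group mean had a median of 0.827 log2 units over the 35 genes, beside 1.248 over all probe sets tested. The SD within groups was also smaller, with a median of 0.252 beside 0.331. The narrowest ranges were those of the ATPase Psmc2 (0.406), the ATPase Psmc3 (0.448) and the beta-ring subunit Psmb4 (0.504). The range exceeded 1 log2 unit in 9 genes: Psma6 (2.188), Psmd10 (1.704), Psme3 (1.506), Psmd14, Psmb1, Psme4, Psmb6, Psmc6 and Psmd11. Psma6, Psmd10 and Psme3 were the 3 genes whose range exceeded the median range of all probe sets tested. The range of Psme3 rests on the single array of IL-6-/- cells with LPS alone for 180 min. Over the 14 groups with more than 1 array it was 1.03, beside a median of 1.179 over all probe sets. Over these 14 groups, 4 genes exceeded that median: Psma6 (2.188), Psmd10 (1.704), Psmd14 (1.219) and Psmb1 (1.189). Averaged over the 35 genes, the centred group means lay between -0.18 in WT cells after 45 min of LPS and 0.14 in IL-6-/- cells after 180 min of LPS with IL-10. The pairwise correlation of the genes over the 16 group means had a median of 0.103, beside 0.008 for all 6070 genes tested. These correlations are descriptions, and the groups share arrays of the same genotypes and times.

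**Figure D1:**
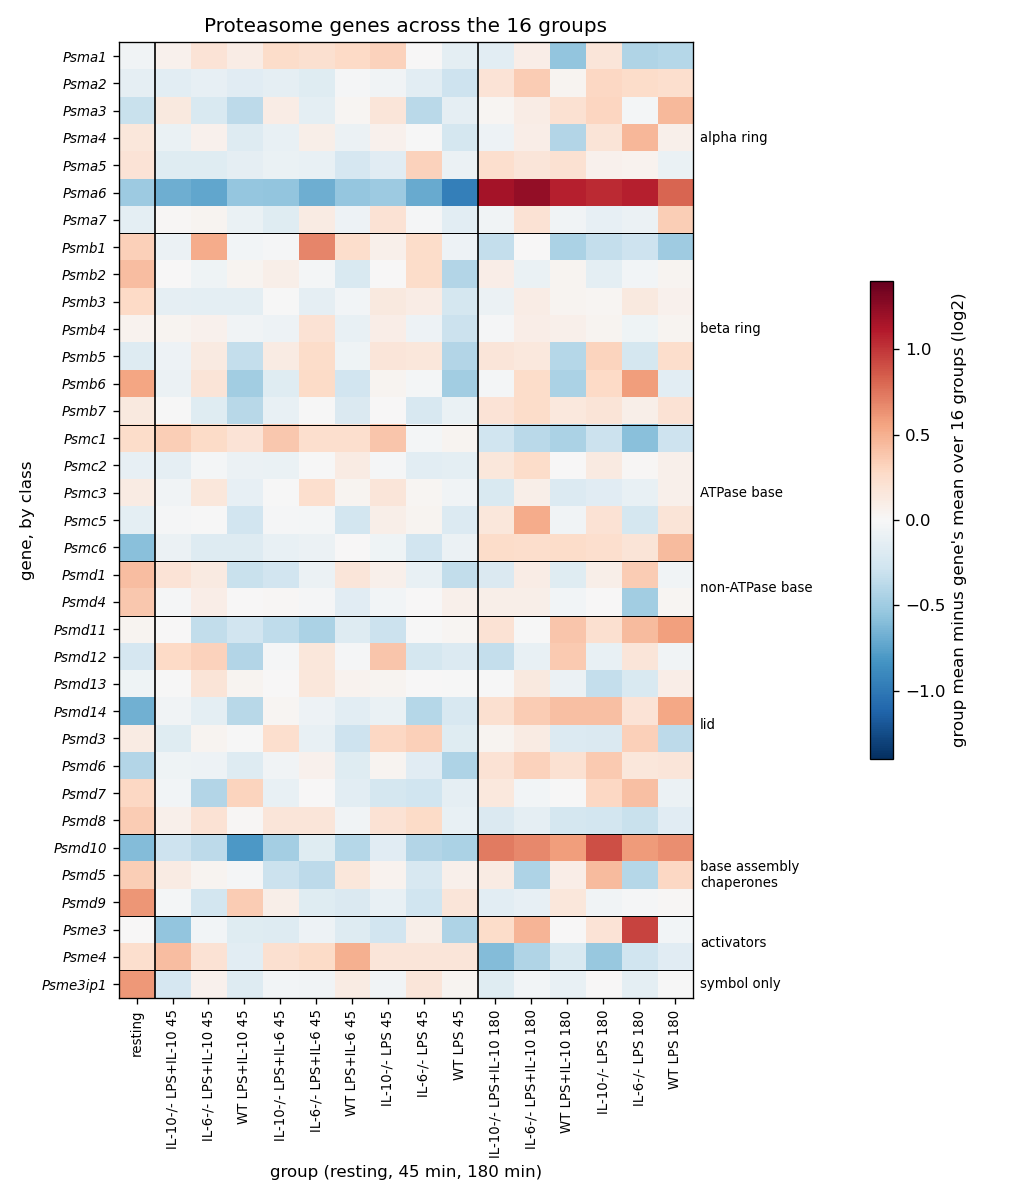
Each row is 1 of the 35 tested genes, ordered by class, and each column is 1 of the 16 groups, with resting cells first, then the 45 min groups, then the 180 min groups. Colour gives the group mean minus that gene's mean over the 16 groups, in log2 units, and 8 rows lie above their own mean in all 6 groups at 180 min, among which Psma6 (by 0.815 or more) and Psmd10 (by 0.59 or more) lie highest.

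The time after stimulation separated a few of these genes strongly. Psma6 encodes a subunit of the alpha ring, which gates the barrel. Its signal was 8636 and 5706 in WT cells after 180 min of LPS, against 2963 and 1375 after 45 min. In IL-10-/- cells given LPS it was 9706 and 6968 at 180 min, against 2882 and 2659 at 45 min. The single arrays of IL-6-/- cells given LPS alone gave 8501 at 180 min, against 2413 at 45 min. In each of these genotypes the arrays of LPS alone at 180 min lay above those at 45 min. With IL-10 added, the arrays at 180 min gave 9704 and 8260 in IL-10-/- cells, 10679 and 8257 in IL-6-/- cells, and 10824 and 6666 in WT cells. The matching arrays at 45 min gave 2467 and 2421 in IL-10-/- cells, 3220 and 1743 in IL-6-/- cells, and 3070 and 2392 in WT cells. These groups did not overlap either. With IL-6 added for 45 min, the arrays gave 2874 and 2508 in IL-10-/- cells, 2990 and 2010 in IL-6-/- cells, and 3179 and 2299 in WT cells. Every one of the 11 arrays at 180 min lay above every one of the 17 arrays at 45 min, and the 4 resting arrays, at 2450 to 3209, lay within the 45 min range. This separation was shared by 291 of all probe sets tested (3.54%), and the opposite one, with every array at 180 min below every array at 45 min, by 509 (6.19%). Among the 35 proteasome genes, Psma6 and Psmd10 showed the first and none showed the second.

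The rise of Psma6 was called in each of the 3 comparisons of 180 with 45 min. It was 1.82 ± 0.18 log2 units under LPS with IL-10 over the 3 genotypes (3.52-fold, limma adjusted p = 2.2e-08), 1.77 ± 0.32 in WT cells under LPS alone (adjusted p = 0.0003) and 1.55 ± 0.32 in IL-10-/- cells under LPS alone (adjusted p = 0.00103). It stayed called without any single array of these comparisons.

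**Figure D2:**
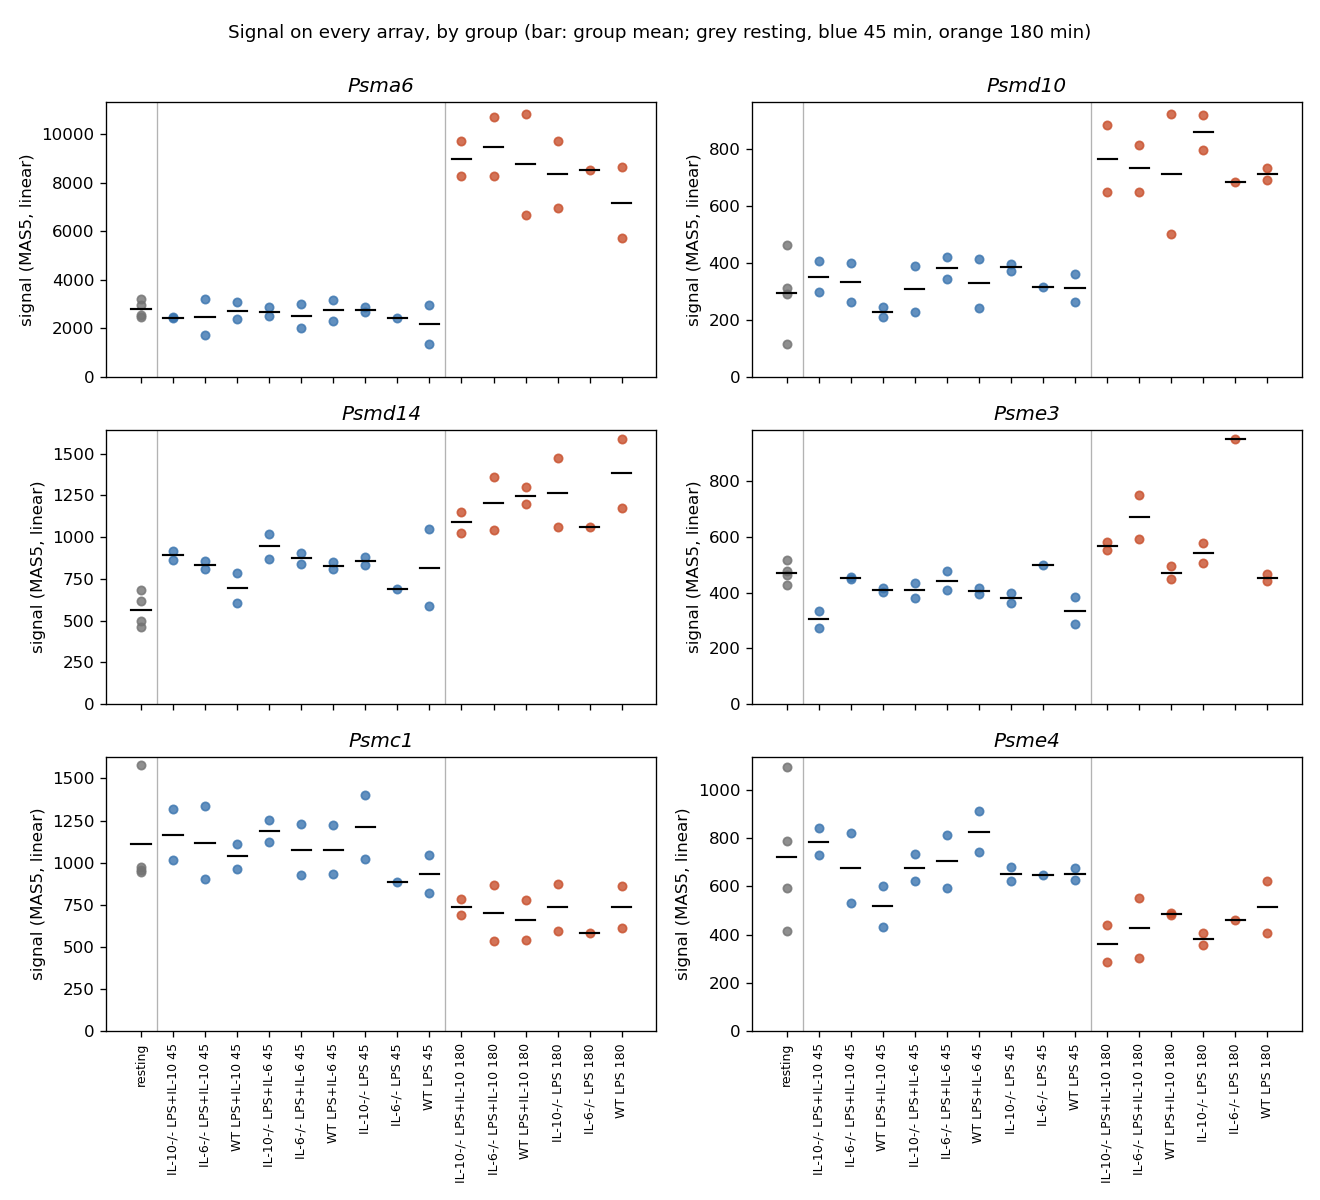
Each point is the MAS5 signal of 1 array on a linear axis from 0, and each bar is the group mean. In Psma6 and Psmd10 all arrays at 180 min (orange) lie above all arrays at 45 min (blue), whereas Psmd14, Psme3, Psmc1 and Psme4 shift with time but overlap.

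Under LPS with IL-10, which had 2 arrays in every group, 6 of the 35 genes rose between 45 and 180 min and 2 fell. Over all probe sets 12.5% rose and 20.2% fell, so the share of proteasome genes called higher was near the background and the share called lower was below it. The median change of the 35 genes was 0.05, beside -0.03 over all probe sets. Psmd10, also called gankyrin, is a chaperone that helps assemble the base. Its signal over all 11 arrays at 180 min was 501.8 at the lowest, 735.4 at the median and 924.8 at the highest, against 211.4, 344.9 and 423.4 over the 17 arrays at 45 min. Its rise was 1.16 ± 0.22 log2 units (2.23-fold, limma adjusted p = 0.000182).

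Psmd14, the lid deubiquitinase, averaged 1180 at 180 min against 807.2 at 45 min under LPS with IL-10, a rise of 0.52 ± 0.14 (adjusted p = 0.00475). Over all stimulated arrays its signal ran between 1025.6 and 1588.6 at 180 min and between 585.3 and 1046.3 at 45 min. Only the array of WT cells with LPS alone, replicate 2, at 1046.3, exceeded the lowest arrays at 180 min. Psme3 encodes the subunit of an activator that opens the barrel without ATP or ubiquitin. It averaged 570.2 against 388.8, a rise of 0.50 ± 0.12 (adjusted p = 0.00135). The single array of IL-6-/- cells with LPS alone for 180 min gave its highest signal, 950.8.

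The called falls were those of Psmc1 and Psme4. Psmc1, an ATPase of the base, averaged 699.3 at 180 min against 1107 at 45 min, and fell by 0.63 ± 0.17 (adjusted p = 0.00457). Its 11 arrays at 180 min lay between 536.7 and 876.2, and its 17 arrays at 45 min between 822.5 and 1401.3. Psme4, a large activator of another family, averaged 425.2 against 659.5 and fell by 0.58 ± 0.19 (adjusted p = 0.0219). Psmc6, another base ATPase (0.40 ± 0.15, adjusted p = 0.0454), and Psmb7, the trypsin-like active-site subunit (0.39 ± 0.14, adjusted p = 0.0346), rose less.

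The calls of Psma6, Psmd10, Psmd14, Psme3 and Psmc1 were kept in all 12 fits that each left out 1 array. Those of Psmc6, Psmb7 and Psme4 were lost in 10, 7 and 5 of the 12, and the count of 8 became 5 without WT replicate 1 at 45 min, without IL-10-/- replicate 1 at 45 min and without IL-10-/- replicate 2 at 180 min. Psme4 was lost without any 1 of these 3 arrays, without IL-6-/- replicate 1 at 45 min or without IL-6-/- replicate 2 at 180 min, where its change was -0.45 (adjusted p = 0.0974). The highest adjusted p was 0.0979 for Psmb7 (without WT replicate 1 at 45 min) and 0.161 for Psmc6 (without IL-6-/- replicate 1 at 180 min). Along with these changes, 1 of 4 tested neutrophil markers was higher at 180 min (S100a8, 3.28, adjusted p = 1.41e-10). The summed neutrophil markers lay between 1760 and 3704 at 180 min, against 447.6 to 968.9 at 45 min, while S100a9 (0.14), Camp (0.21) and Elane (0.02) were not called. None of the 7 neutrophil genes on the array was at 0, and Mpo, Ngp and Ltf stayed below the filter. None of the 6 stromal markers was called there. Of the 7 macrophage markers, Cd14 was higher (0.40), Csf1r (-0.47) and Cd68 (-0.39) were lower, and their summed signal lay between 112000 and 127300 at 180 min, against 113500 to 131900 at 45 min. The part of these markers in the results was not tested.

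Under LPS alone, 2 of the 35 genes were higher at 180 than at 45 min in WT cells, beside 6.77% of all probe sets, and 0 were lower, beside 7.13%. The calls were Psma6 and Psmd14, and the count was 4 with quantile normalization and 5 with the filter at a signal of 500. It was higher still with a replicate block, as given under the dependence on processing. Psmd14 gave 1178 and 1589 in WT cells at 180 min, against 585.3 and 1046 at 45 min, a rise of 0.77 ± 0.24 (adjusted p = 0.0347). The rise was 0.37 (adjusted p = 0.478) without WT replicate 1 at 45 min and 0.56 (adjusted p = 0.285) without WT replicate 2 at 180 min, so this call rests on those arrays. Psmd10 differed by 1.09 ± 0.38 and was not called (adjusted p = 0.0567). The median change of the 35 genes was 0.29, beside -0.14 over all probe sets. In IL-10-/- cells the only call was Psma6, beside 6.57% of all probe sets higher and 10.5% lower, and the median change was 0.12, beside 0.03.

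Whether the change over time differed between IL-10-/- and WT cells was tested as a difference of differences. Limma called 0 of the 35 genes, beside 1.12% of all probe sets, and 1 gene had an unadjusted p under 0.05. For Psma6 the difference was -0.22 with a 95% interval of -1.15 to 0.71, which does not exclude a difference of 1 log2 unit. Across the 3 genotypes and both arms, which give 6 time differences, 11 genes were positive in all 6 (Psma2, Psma6, Psmb6, Psmb7, Psmc2, Psmc6, Psmd6, Psmd10, Psmd11, Psmd14 and Psme3). Another 5 were negative in all 6 (Psma1, Psmb1, Psmc1, Psmd8 and Psme4). Over all probe sets 13.9% were positive and 23.8% negative in all 6. The 2 arms of a genotype are separate arrays, and these counts are descriptions.

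For 2 genes another probe set gave more calls than the one used. A second probe set of Psmd11, a lid scaffold subunit, rose by 0.54 under LPS with IL-10 (adjusted p = 0.0143), where the one used differed by 0.40 (adjusted p = 0.343). In WT cells after 180 min of LPS alone it was also called higher. The difference was 0.88 against 45 min (limma adjusted p = 0.0442) and 0.93 against resting cells (limma adjusted p = 0.00551), and the one used was called in neither. A second probe set of Psmb1, a beta-ring subunit without an active site, fell by 0.61 under LPS with IL-10 (adjusted p = 0.000891), where the one used differed by -0.39 (adjusted p = 0.111). In IL-10-/- cells under LPS alone it fell by 0.75 between 45 and 180 min (limma adjusted p = 0.0282). The one used differed there by -0.40 (limma adjusted p = 0.425). No pair of probe sets of a gene was called in opposite directions. However, both were called only for Psmb1, in WT cells after 180 min of LPS against resting cells (-0.85 and -0.84). Signs often differed where neither was called: the other tested probe set of Psmb5, with a weaker mean signal of 346.4, had the opposite sign to the one used in 10 of the 15 comparisons, and that of Psmb4 in 9.

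The promoter windows of the 3 genes with the largest called rises under LPS with IL-10, and of the active-site gene Psmb5, are shown so that the sequence near their start sites can be read beside these changes. Each window runs 5′ to 3′ over 250 bases before to 50 bases after a start site annotated by RefSeq in GRCm38.p6. RefSeq lists 2 start sites for Psma6, and the probe set does not tell which transcript gave its signal. Capitals mark matches on either strand to the CCAAT box (CCAAT) and the antioxidant response element core (TGACNNNGC), to which the proteasome regulators NRF1 and NRF2 bind.
Psma6, chr12:55383972-55384271, plus strand: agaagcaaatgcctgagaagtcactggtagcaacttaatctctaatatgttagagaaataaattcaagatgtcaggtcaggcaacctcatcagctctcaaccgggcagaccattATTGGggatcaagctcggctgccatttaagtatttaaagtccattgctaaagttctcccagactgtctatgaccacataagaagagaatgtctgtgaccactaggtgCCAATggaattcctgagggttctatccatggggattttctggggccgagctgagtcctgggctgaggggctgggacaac
Psma6, chr12:55398575-55398874, plus strand: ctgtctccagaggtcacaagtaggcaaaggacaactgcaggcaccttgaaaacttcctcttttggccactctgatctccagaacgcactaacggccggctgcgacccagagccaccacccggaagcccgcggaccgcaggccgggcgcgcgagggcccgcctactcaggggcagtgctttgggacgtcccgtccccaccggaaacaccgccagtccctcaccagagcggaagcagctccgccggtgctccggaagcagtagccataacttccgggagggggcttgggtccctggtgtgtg
Psmd10, chrX:140956662-140956961, minus strand: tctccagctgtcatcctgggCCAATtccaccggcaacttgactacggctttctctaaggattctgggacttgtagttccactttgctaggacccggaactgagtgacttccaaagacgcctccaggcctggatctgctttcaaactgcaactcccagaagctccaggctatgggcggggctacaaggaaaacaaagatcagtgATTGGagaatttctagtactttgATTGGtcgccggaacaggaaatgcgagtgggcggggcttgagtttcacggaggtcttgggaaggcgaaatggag
Psmd14, chr2:61711444-61711743, plus strand: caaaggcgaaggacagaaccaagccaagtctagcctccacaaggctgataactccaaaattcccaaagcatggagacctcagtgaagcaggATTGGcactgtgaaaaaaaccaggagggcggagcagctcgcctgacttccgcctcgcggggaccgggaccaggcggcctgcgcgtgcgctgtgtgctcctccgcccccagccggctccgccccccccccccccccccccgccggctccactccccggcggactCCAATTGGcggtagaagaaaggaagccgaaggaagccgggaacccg
Psmb5, chr14:54617946-54618245, minus strand: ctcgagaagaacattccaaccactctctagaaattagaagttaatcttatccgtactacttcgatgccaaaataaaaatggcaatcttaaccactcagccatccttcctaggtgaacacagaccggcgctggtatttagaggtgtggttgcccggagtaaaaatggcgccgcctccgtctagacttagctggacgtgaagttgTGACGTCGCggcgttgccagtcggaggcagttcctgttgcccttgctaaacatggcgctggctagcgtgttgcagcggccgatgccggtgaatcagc
The windows of Psma6 (first start site), Psmd10 and Psmd14 held CCAAT matches, that of Psmb5 held the antioxidant response element core, and the second window of Psma6 held neither.

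A window was listed for 32 of the 38 genes, 35 windows in all. The antioxidant response element core was found in 17.1% of them, beside 12.4% of all 32851 windows of the same length. The CCAAT box was found in 40%, beside 37.4%. The GC box (GGGCGG), a common element of housekeeping promoters, was found in 57.1%, beside 35.7%. A STAT-type element (TTCNNNGAA) was found in 2.86%, beside 8.3%. Matches on both strands counted, and GC boxes and CCAAT boxes can overlap other matches. A match is a string of letters and no evidence of binding.

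WT cells given LPS for 45 min differed from resting cells in 1 of the 35 genes. In this comparison stimulation, genotype and CSF-1 source cannot be told apart. Psmb6, the caspase-like active-site subunit, gave 1326 and 1032 in WT cells with LPS, against 2395, 2697, 2264 and 2502 in resting cells. In WT cells with LPS, Psmb6 was lower than in resting cells by 1.04 ± 0.19 log2 units (limma adjusted p = 0.000497). Called higher were 0 of the 35 genes, beside 9% of all probe sets, and called lower was this 1, beside 7.75%. The median change was -0.23, beside 0.03 over all probe sets, and 6 of the 35 genes were above 0. The count of calls grew when single arrays were left out, to 4 without resting replicate 1, to 3 without resting replicate 2, resting replicate 3 or WT replicate 2, and to 2 without resting replicate 4 or WT replicate 1. Psmb6 stayed called in all 6.

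After 180 min of LPS in WT cells, 6 of the 35 genes were higher than in resting cells and 6 were lower. Over all probe sets 14.4% were higher and 19.4% lower, so neither share stood far from the background. The genes called higher were Psma6 (1.33 ± 0.28), Psmd10 (1.25 ± 0.33), Psmd14 (1.22 ± 0.21), Psmc6 (1.03 ± 0.23) and 2 further alpha-ring genes, Psma3 (0.76 ± 0.18) and Psma7 (0.48 ± 0.15), with limma adjusted p between 6.25e-05 and 0.0164. Psmd14 gave 1178 and 1589 in WT cells with LPS, against 496.7, 618.2, 464 and 684 in resting cells. The genes called lower were Psmb1 (-0.84 ± 0.27), Psmb6 (-0.70 ± 0.19), Psme3ip1 (-0.61 ± 0.23), the base chaperone Psmd9 (-0.60 ± 0.19), and the lid subunits Psmd8 (-0.51 ± 0.20) and Psmd3 (-0.49 ± 0.19). Their adjusted p lay between 0.00625 and 0.0496.

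Of the genes called lower, Psmb1 differed most, with signals of 1044 and 818.5 in WT cells with LPS, against 1505, 1525, 1819 and 1958 in resting cells. By class, 3 of 7 alpha-ring genes, 1 of 5 ATPases, 1 of 3 base chaperones and 1 of 8 lid genes were higher, and 2 of 7 beta-ring genes, 1 of 3 base chaperones, 2 of 8 lid genes and Psme3ip1 were lower. Differences between classes were not tested. Without WT replicate 2 at 180 min the count was 5 in place of 12: Psma3, Psma7, Psmb1, Psmb6, Psmd9, Psmd3, Psmd8 and Psme3ip1 were lost, and Psma6, Psmd10, Psmd14 and Psmc6 were kept. Psmd3 was also lost without each resting replicate, Psme3ip1 without resting replicate 1, 2 or 3, and Psmd8 without resting replicate 1 or 4 or WT replicate 1. With quantile normalization 7 were higher and 3 lower. All 6 stromal markers were higher with LPS than in resting cells at both times. Their summed signal lay between 676.7 and 1925 in resting cells, between 6527 and 7266 at 45 min and between 5965 and 6555 at 180 min. None was at 0, and their part in the differences from resting cells was not tested.

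The 3 constitutive active-site genes were unlike one another against resting cells. Psmb6 was lower at both times. Psmb5, the chymotrypsin-like subunit, gave 1801 and 1380 in WT cells after 180 min of LPS, against 911.2, 1201, 1176 and 1394 in resting cells, and was not called (0.43 ± 0.19, adjusted p = 0.0917). Its other probe set gave the opposite sign there (-0.40, adjusted p = 0.309). Psmb7 gave 1677 and 1389, against 955.4, 1858, 1233 and 2055, a difference of 0.06 ± 0.21. The inducible counterparts were all lower than in resting cells after 45 min of LPS. Psmb9, which replaces Psmb6, differed most (-1.73 ± 0.24, adjusted p = 1.61e-05), with signals of 397.5 and 587.7 against 2423, 1838, 1877 and 1050. Psmb8 differed by -0.88 ± 0.16, Psmb10 by -0.86 ± 0.24 and the activator gene Psme1 by -1.38 ± 0.19. Without WT replicate 2 at 45 min, Psmb10 was no longer called (adjusted p = 0.168). After 180 min, Psmb9 (-1.18 ± 0.24) and Psme1 (-0.57 ± 0.19) were still lower than in resting cells, while Psmb8 and Psmb10 were not called. Psme1 was no longer called without resting replicate 3 (adjusted p = 0.0678), WT replicate 1 (0.123) or WT replicate 2 (0.0867). Psme2 has no probe set of its own symbol and was not used here.

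**Figure D3:**
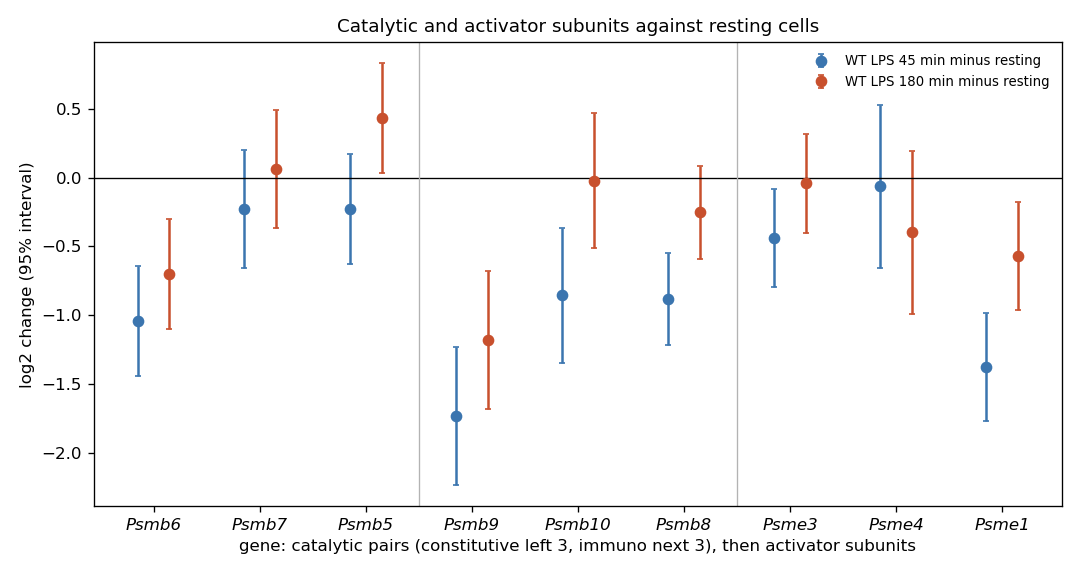
Points give each gene's own log2 change in WT cells with LPS against resting cells, at 45 min (blue) and 180 min (orange), with 95% intervals. Psmb6 and Psmb9 lie below 0 at both times, and Psmb7 and Psmb5 at 45 min have intervals that include 0.

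None of the 35 genes was called when IL-10 was added to LPS. At 45 min, over the 3 genotypes, limma called 0, beside 1.03% of all probe sets, with 0 at an unadjusted p under 0.05. At 180 min it called 0, beside 3.82%, with 1 at an unadjusted p under 0.05 (Psmb6, -0.31 ± 0.14, adjusted p = 0.387). The changes at 180 min lay between -0.37 and 0.20, and the 95% intervals of all 35 genes stayed within 1 log2 unit of 0 at both times. Psma6 gave 9065 with IL-10 against 8003 without at 180 min, a difference of 0.18 with an interval of -0.23 to 0.59. In these means IL-6-/- cells with LPS alone contribute 1 array at each time, for which the spread of the other groups was taken.

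Taken by genotype at 180 min, added IL-10 gave 0 calls in WT cells, beside 0.134% of all probe sets, and 0 in IL-10-/- cells, beside 3.54%. At an unadjusted p under 0.05 there were 2 genes in WT cells and 0 in IL-10-/- cells. One of those 2 was Psmb5, with 1218 and 794.4 in WT cells given LPS and IL-10, against 1801 and 1380 with LPS alone (-0.65 ± 0.22, adjusted p = 0.492), whereas its other probe set differed by 0.69 (adjusted p = 0.78). The difference of the response between IL-10-/- and WT cells gave 0 calls, beside 0.559%, and 0 at an unadjusted p under 0.05. Its intervals were wide, and those of 22 of the 35 genes stayed within 1 log2 unit of 0. Adding IL-6 for 45 min also gave 0 calls, beside 0.547%, with 0 at an unadjusted p under 0.05 and all 35 intervals within 1 log2 unit of 0.

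**Figure D4:**
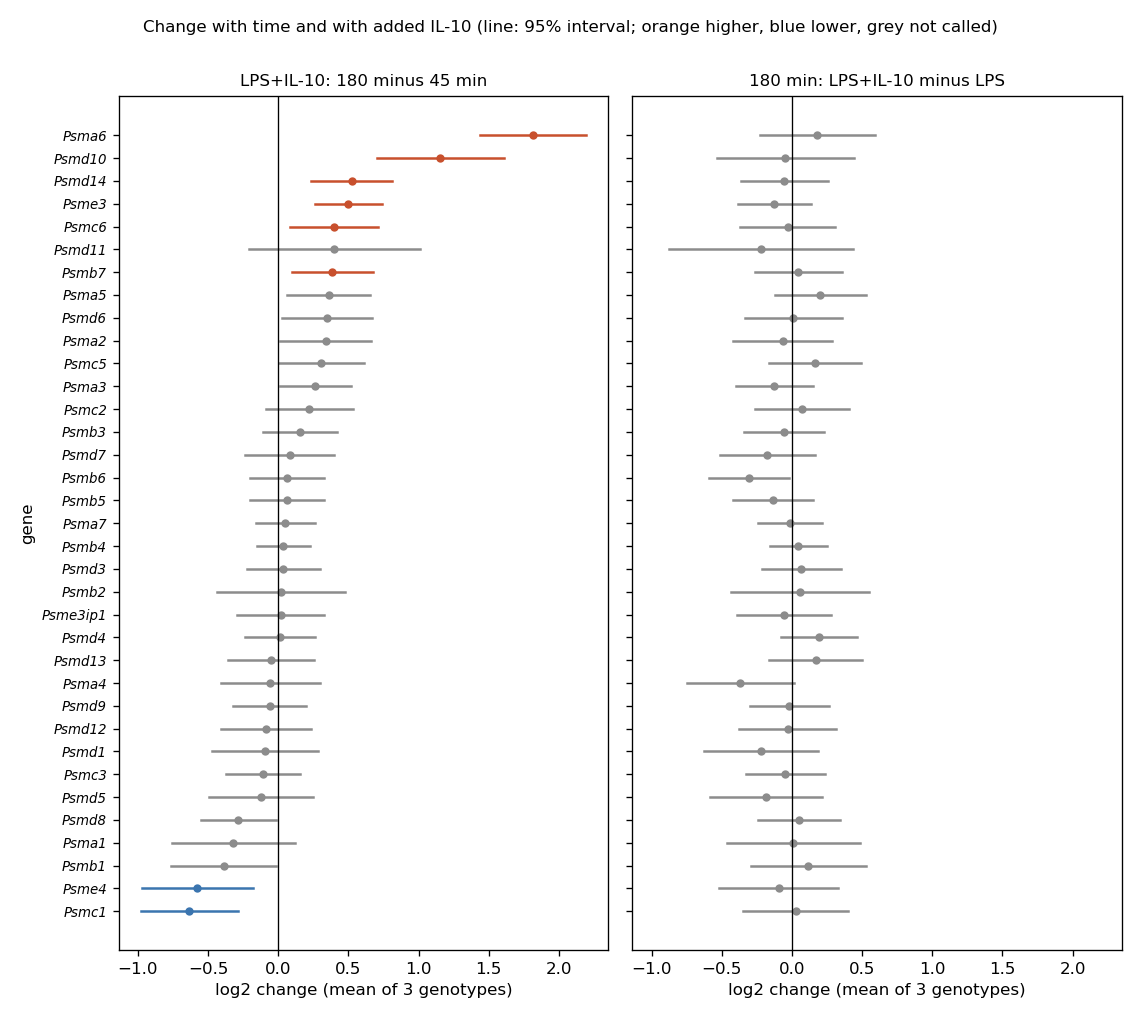
Each row is 1 of the 35 genes, with its log2 change and 95% interval: on the left 180 against 45 min under LPS with IL-10, on the right LPS with IL-10 against LPS alone at 180 min, both averaged over the 3 genotypes. On the left 6 genes are called higher (orange) and 2 lower (blue), and on the right none is called.

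None of the 35 genes was called between IL-10-/- and WT cells. Under LPS for 180 min, IL-10-/- against WT cells gave 0 of 35 calls in limma, beside 2.87% of all probe sets, with 1 at an unadjusted p under 0.05. Over the 3 arms with an added cytokine it gave 0, beside 1.05%, with 2 at an unadjusted p under 0.05 (Psmb5 and Psmb6), and all 35 intervals stayed within 1 log2 unit of 0. In IL-6-/- against WT cells over the same arms, 1 gene was higher, beside 1.09% of all probe sets, and 0 were lower, beside 1.16%.

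That gene was Psmb6, which averaged 1983 in IL-6-/- cells against 1266 in WT cells, a difference of 0.63 ± 0.13 (1.55-fold, adjusted p = 0.00646). The arrays gave 2189 and 1634 in IL-6-/- cells, against 1436 and 951.4 in WT cells, with LPS and IL-10 at 45 min. At 180 min they gave 2238 and 1789, against 1342 and 1099. With LPS and IL-6 they gave 2273 and 1773, against 1543 and 1224. The IL-6-/- arrays lay above the WT arrays in each of the 3 arms. The share of all probe sets that did so was not counted. Psmb6 was called in all 12 fits without 1 array, and 1 such fit gave 3 calls in all (without IL-6-/- replicate 2 of LPS and IL-10 at 45 min) and another gave 2 (without WT replicate 1 of LPS and IL-10 at 180 min). Psmb5 differed by 0.44 ± 0.13 in the same direction and was not called (adjusted p = 0.0733). Its other probe set had the opposite sign (-0.50, adjusted p = 0.215). IL-10-/- cells also averaged more Psmb6 signal than WT cells in these arms, without a call. In the same order of arms the means were 1568, 1651 and 1474, against 1193, 1220 and 1383 in WT cells. Under LPS alone IL-10-/- cells averaged 1711 at 45 min and 2040 at 180 min, against 1179 and 1503 in WT cells.

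Of 31 other genes of the ubiquitin-proteasome pathway on the array, 30 were tested. Under LPS with IL-10, 5 were higher and 6 lower at 180 than at 45 min, shares near the 12.5% and 20.2% of all probe sets. Zfand2a, an arsenite-inducible partner of the proteasome, averaged 175.8 at 180 min against 1356 at 45 min (-2.66 ± 0.14, adjusted p = 1.5e-13). Psmg1, a chaperone of core assembly, fell by 0.99 ± 0.18, and Uchl5, a deubiquitinase of the regulatory particle, fell by 0.69 ± 0.16. Ubqln2, a shuttle for ubiquitinated proteins, fell by 0.98 ± 0.18. The ubiquitin-conjugating enzyme genes Ube2n (0.65 ± 0.13) and Ube2d3 (0.64 ± 0.15) rose. So did Nfe2l1 (0.48 ± 0.16) and Nfe2l2 (0.50 ± 0.11), which encode the NRF1 and NRF2 transcription factors. In WT cells under LPS alone, Nfe2l2 was instead lower at 180 min (4894) than at 45 min (6345), without a call. Sem1, a small lid subunit outside the symbol rule, fell by 0.34 ± 0.12.

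Against resting cells, WT cells had 3 pathway genes higher and 4 lower after 45 min of LPS, and 9 higher and 5 lower after 180 min. Over all probe sets the shares higher and lower were 9% and 7.75% after 45 min, and 14.4% and 19.4% after 180 min. Sem1 was lower at both times (-0.88 ± 0.18 and -1.01 ± 0.18). Ube2d3 was higher at both (1.44 ± 0.23 and 2.14 ± 0.23), and so was Zfand5, a zinc-finger protein that binds the proteasome (1.75 ± 0.36 and 2.13 ± 0.36). Averaged over the 3 genotypes, Zfand5 was also called higher with added IL-10 at both times. It averaged 7635 with added IL-10 against 3496 without at 180 min over the 3 genotypes (1.34 ± 0.26, adjusted p = 0.00174), and 10100 against 4549 at 45 min (1.16 ± 0.26, adjusted p = 0.016). By genotype at 180 min, IL-10-/- cells gave 8041 with added IL-10 against 1270 without (2.62 ± 0.41, limma adjusted p = 0.000155). In WT cells added IL-10 gave 0 calls among the tested pathway genes at 180 min. In IL-10-/- cells Zfand5 gave 1270 after 180 min of LPS, against 5402 in WT cells (-2.05 ± 0.41, limma adjusted p = 0.00383). Nfe2l2 was higher than in resting cells after 45 min (1.18 ± 0.17) and 180 min (0.80 ± 0.17) of LPS in WT cells. It was lower with added IL-10 at 45 min, at 4542 against 6628 over the 3 genotypes (-0.57 ± 0.12, adjusted p = 0.0114).

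In the 16 group means, the mean of the 35 proteasome genes was followed most closely by Ranbp1 (Pearson r = 0.886), which serves nuclear transport, Nhp2 (0.885) and Emg1 (0.868), which serve ribosome assembly, Eif1ax (0.883), which serves translation initiation, Ppp1r14b (0.869) and Ppp3cc (0.868). Psma6 was followed most closely by the chemokine genes Ccl5 (0.988) and Ccl9 (0.98), the glycolytic gene Pfkl (0.98), and Tnip1 (0.979), Tnfrsf1b (0.978) and Gas7 (0.976). Its correlation was 0.941 with Psmd10, 0.809 with Psmd14 and -0.894 with Psmc1. In the RefSeq gene order the next protein-coding gene after Psma6 on chromosome 12 is Nfkbia, which encodes the inhibitor of NF-kappaB. Nfkbia averaged 2467 in resting cells, and in WT cells given LPS 23850 after 45 min and 26290 after 180 min. The difference between 180 and 45 min was 0.14 log2 units (adjusted p = 0.823). Its correlation with Psma6 was 0.158. All these correlations are descriptions over 16 group means that share times and genotypes.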

How the data were processed

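Signals are intensities on a linear scale, 1 per probe set and array, used as the authors deposited them. MAS5 made them, per the submitters' processing notes, which give no version. No further scaling was applied. The platform table gave 1 symbol to 10855 probe sets and several to 396, and it does not list 1237. A suffix such as _f_at or _s_at marks probes that may also match related transcripts. This applies to Psma3, Psmb4, Psmb5, Psmb7, Psmc3 and Psmd12, and Psmd9 has the suffix _r_at.

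A mean for each of the 16 groups was fitted to log2(signal + 50) with limma 3.58.1 (R 4.3.3, lmFit, eBayes with an intensity trend). The 8224 probe sets tested reached 200 on 2 or more of the 32 grouped arrays. The fit had 16 residual and 7.575 prior degrees of freedom. P-values are 2-sided. The 15 comparisons share arrays, since the arrays of LPS alone serve both the comparison with resting cells and those over time and with added cytokines. The number of arrays limits the precision. The fit was tested on simulated data.

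The members and lists were chosen with earlier results of these data known, so no list is tested as a set. Named genes are every called member where 8 or fewer passed in a direction, the active-site, activator and deubiquitinase genes, the largest changes, and the 6 genes of most similar profile. The profiles most similar to Psma6 were looked up after its values were seen. The alternatives were a replicate block, quantile normalization, a pseudocount of 10 or 200, a filter at 500 or none, eBayes with no trend, averaging a gene's probe sets, WT and IL-10-/- alone, and leaving out each array. For comparisons without resting cells, a fit without resting replicate 4 was also run, which was chosen after seeing the data. The 2 arrays without a clear group entered no test.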

Additional observations from a re-analysis of the deposited data

Results flagged for a closer look

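In resting cells, 1 array lay far from the other 3 for 2 of the 35 genes. Psmc1, an ATPase of the base, gave 1577 on resting replicate 4, against 942.4 to 973.3 on the others, so that the gap took up 0.951 of the whole range of the group. Psma7, an alpha-ring gene, gave 1933 on the same array, against 1425 to 1494, a gap of 0.865 of the range. Chance alone marks about 1 in 20 such groups, and 35 genes were checked. The same array had the lowest correlation with its group (r = 0.873). Psma7 was called higher after 180 min of LPS than in resting cells both with this array in the fit and without it.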

How the results depend on the processing

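No called change of a proteasome gene reversed under any alternative run. Of 37 called changes of single genes, comparators included, the alternatives kept 37 with a pseudocount of 10, a filter at 500 or the mean of all probe sets, 36 with a pseudocount of 200, 34 with a replicate block, 33 with quantile normalization or without a trend, and 32 without a filter. Over WT and IL-10-/- alone, 5 of 11 were kept. In the fits without 1 array, 66 of 280 such results lost their call, and 0 reversed. Counts of called genes moved as follows. For WT LPS at 45 min against resting, 1 became 3 with a filter at 500, 2 with quantile normalization, 5 with a replicate block and 2 with the mean of all probe sets. For WT LPS at 180 against 45 min, 2 became 5, 4 and 7 under the first 3 of these, and 4 without resting replicate 4. For IL-10-/- LPS at 180 against 45 min, 1 became 2 with a pseudocount of 200, a filter at 500 or the mean of all probe sets, and 3 with the block. The block gave 1 in place of 0 for the difference of the time change between IL-10-/- and WT and for added IL-10 at 180 min, and 3 in place of 1 for IL-6-/- against WT. Over WT and IL-10-/- alone, LPS with IL-10 at 180 against 45 min gave 5 in place of 8. The cause of these shifts was not tested. Without 1 array at a time the counts lay between 2 and 4 for WT LPS at 45 min against resting, 5 and 11 at 180 min against resting, 1 and 2 for WT LPS over time, 5 and 9 for LPS with IL-10 over time, 0 and 1 for added IL-10 at 180 min, and 1 and 3 for IL-6-/- against WT. The main fit did not pair the arrays by replicate number. Over 23 pairs of groups the deviations of same-numbered arrays correlated at 0.02 to 0.441 (median 0.12), and 13 exceeded 0.1. All of these correlations were positive, and some genes shifted with the replicate number throughout, as given under other observations. The p-values in the text come from the fit without a block, so they do not account for a shift shared by same-numbered arrays. In 3 fits the array left out was the only one of its group, and no value could be had. Weak signals limit Psmc4, Psmd2 and Psmc3ip, which were not tested.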

Other observations

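The 2 arrays without a clear group entered no comparison, and their values are given singly. The array whose title gives no genotype had a Psma6 signal of 2760, a Psmd10 signal of 332.1, a Psmd14 signal of 738.2, a Psmc1 signal of 999.7 and a Psme4 signal of 731.4. The array whose title and protocol give different times had a Psma6 signal of 9843, a Psmd10 signal of 800.5, a Psmd14 signal of 1131, a Psmc1 signal of 602.5 and a Psme4 signal of 383.2.

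In all 13 stimulated groups that had both a replicate 1 and a replicate 2, the array numbered 1 gave the higher Psma6 signal, by 0.03 to 1.08 log2 units. This order was not particular to Psma6. Psma2, Psmb1, Psmb6 and Psmc1 were also higher on replicate 1 in each of the 13 groups, and Psmb2 was lower on it in each. The share of all probe sets with the same order in all 13 groups was not counted. The order is therefore not read as a trait of these genes. What the replicate numbers stand for is not given in the sources used here.

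The profiles closest to Psmd10 over the 16 group means were those of Acod1 (r = 0.975), which encodes the enzyme that makes itaconate, the co-chaperone gene Stip1 (0.973), the signalling adaptor gene Traf1 (0.972), the oxidase gene Cybb (0.97), Peli1 (0.97) and Slfn2 (0.967). These are descriptions, looked up after the values of Psmd10 were seen.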
